A study of Mus musculus with 4 samples.

Results

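The genes described here are 10 that encode transcription factors of the development and identity of group 2 innate lymphoid cells (ILC2s): Gata3, Rora, Bcl11b, Gfi1, Id2, Tcf7, Hes1, Nfil3, Ets1 and Zbtb16. They were chosen by name for that role, and not by their values, out of 27179 NCBI gene identifiers in a table of read counts. All 10 were found and all 10 passed the filter on low counts. Colonic ILC2s were sorted from C57BL/6J animals fed either a control or a high-fiber diet, and their RNA was sequenced in bulk. There were 4 libraries of 1 mouse each, 2 per diet. No genetic modification is named for either group. The labels give neither the kind of fiber, the time on the diet, the age of the mice nor the gates of the sort.

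ILC2s are tissue lymphocytes without antigen receptors that release type 2 cytokines when epithelial alarm signals reach them. They arise from lymphoid progenitors that pass through a stage dependent on NFIL3, ID2 and TCF-1, of which some transiently make PLZF, and they then commit under GATA3 and RORα. GFI1 and BCL11B are repressors known to hold the ILC2 program in place in mature cells, and ETS1 supports ILC2 expansion. HES1 is a repressor switched on by NOTCH signals, which also feed into TCF-1 expression.

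Library totals were 20253987 to 30406730 counts, and 11841 genes were tested. With 2 mice a diet, the common biological coefficient of variation was 0.607, and 4 genes passed edgeR's quasi-likelihood test at an adjusted p under 0.05, which is 0.0338% of tested genes. High-fiber library 2 stood apart from the other 3 on the first principal component, which held 45.8% of the variance between libraries. The receptor genes expected on ILC2s were present, with Il7r at 851 to 1050 CPM (read counts scaled to a common library total) and Il1rl1, the IL-33 receptor gene, at 444 to 608 CPM, although Ptgdr2 had 0 counts in all 4 libraries. Of 13 T cell markers, Cd8a, Cd8b1 and Cd5 had 0 counts throughout, and the list summed to 1377 and 1557 CPM in control and to 1242 and 1462 CPM in high-fiber mice. Trbc1, at 460 to 638 CPM, and Lat made up most of that sum, while Trac lay at 4.16 to 14.9 CPM. Of 9 T cell markers tested, 8 had negative and 1 a positive log2 fold change, and none passed by edgeR. Themis was at 12.02 and 15.9 CPM in control mice and at 1.801 and 2.11 CPM in high-fiber mice (adjusted p 0.447 by edgeR and 0.00999 by DESeq2). DESeq2 called 0.607% of all genes it gave an adjusted p lower. Cd3g, the positive one, was at 143 and 171 CPM in control mice and at 244 and 289 CPM in high-fiber mice (adjusted p 0.447 by edgeR and 0.112 by DESeq2). T cells also make several of the 10 factors. The 8 B and plasma cell markers summed to 156 and 39.1 CPM in control and to 342 and 1226 CPM in high-fiber mice, and the 10 macrophage, monocyte and dendritic cell markers to 159 and 312 CPM and to 364 and 387 CPM. The 8 ILC3 markers summed to 1316 and 1428 CPM in control mice and to 1824 and 1549 CPM in high-fiber mice, with Il22, Il23r and Ccr6 at 0. Of the 5 tested, the log2 fold change was positive for 2, Il17a and Il17f, but below 0 for the other 3, Tmem176a, Tmem176b and Tnfsf11. Tmem176a and Tnfsf11 were lower in each high-fiber mouse than in each control mouse. Il17a rose from 1.16 and 1.57 CPM to 76.5 and 95.2 CPM (adjusted p 0.0306 by edgeR). Il17f was at 15.1 and 7.19 CPM in control mice and at 545 and 245 CPM in high-fiber mice (adjusted p 0.0931 by edgeR). By edgeR 1 of the 5 passed, against 0.0338% of all tested genes. DESeq2 called both, against 1.21% called higher among all genes it gave an adjusted p. The 8 NK cell and ILC1 markers summed to 306 and 365 CPM in control and to 234 and 258 CPM in high-fiber mice, with Eomes and Klra8 at 0. Of the 5 tested, 4 had negative and 1 a positive log2 fold change. The part of these cells in the values below was not tested. In bulk RNA, fewer cells of a type and less RNA per cell cannot be told apart.

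Promoter windows of 250 bases upstream of an annotated start were read from RefSeq (GRCm38.p6) for 7 of the 10 genes, 9 windows in all. The Gata3 window is shown because Gata3 is the lineage-defining member of the set, and the Nfil3 stretch because its window held a match to the letters read by ROR receptors such as the product of Rora. Gata3 is on the minus strand at chr2:9878601-9878850, where an exon of the antisense RNA Gm13256 also lies, and the 30 bases of Nfil3 are on the minus strand at chr13:52981040-52981069. Both are written 5′ to 3′ and end at the base before the start, and capitals mark matches to the motifs searched.
Gata3: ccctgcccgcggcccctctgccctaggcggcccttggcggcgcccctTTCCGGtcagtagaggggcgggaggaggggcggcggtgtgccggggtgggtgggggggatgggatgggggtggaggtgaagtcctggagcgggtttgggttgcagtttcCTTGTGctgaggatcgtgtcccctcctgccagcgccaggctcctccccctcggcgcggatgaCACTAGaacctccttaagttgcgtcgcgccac
Nfil3: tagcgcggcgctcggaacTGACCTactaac

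The motifs below were searched as letters on both strands, each allowed to overlap the others. Here all windows means 32851 RefSeq promoter windows of this length, with 1 chromosome left out that holds none of the factor genes. The Gata3 window held 1 match to the ETS core CCGGAA, found in 12.03% of all windows. It also held 2 matches to the HES N-box CACNAG, found in 36.7% of all windows. The ROR letters AGGTCA were in the Nfil3 window and in 1 of the 2 Tcf7 windows, against 14.0% of all windows. The TCF or LEF letters CTTTGA were in the Bcl11b window (13.8% of all windows). E-boxes, CANNTG, were in 5 of the 9 windows, against 66.2% of all windows. AGATAA, the letters of GATA factors (9.99% of all windows), TGGGAA of RBPJ (21.6%) and TTANNTAA of NFIL3 (5.43%) were in 0 of the 9 windows. These matches describe the letters and show no binding.

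The 10 factors ranged from some of the most abundant transcripts of these cells to one barely detected. Levels between genes are given per length, as CPM per kilobase of annotated exon. Averaged over the 4 libraries, Id2 stood first at 1666, followed by Hes1 at 762, Gata3 at 296, Nfil3 at 219, Ets1 at 154 and Rora at 109. Far below came Tcf7 at 18.2, Gfi1 at 7.43, Bcl11b at 3.96 and Zbtb16 at 0.281. On this scale Id2 lay above 99.8% to 99.9% of the 11340 tested genes with an exon length, over the 4 libraries, and Hes1 above at least 99.4%. Gata3, Nfil3, Ets1 and Rora lay above 94.5% to 99.1% of those genes, and Bcl11b above 39.3% to 50.1%. Zbtb16 lay above no gene in high-fiber library 2, where it had 0 counts, and above at most 17.9% in the others.

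This order was mostly the same in each mouse. Id2 and Hes1 held ranks 1 and 2 in all 4 libraries, Ets1 rank 5, Rora rank 6 and Zbtb16 rank 10. The lowest Id2 level (1439) was above the highest Hes1 level (1031), and the lowest Hes1 level (593) above the highest Gata3 level (406). Gata3 and Nfil3 did not differ beyond their spread: Nfil3 was the lower in 3 of 4 libraries and the higher in high-fiber library 2. Nfil3 and Ets1 were separated narrowly, with a lowest Nfil3 level of 189 and a highest Ets1 level of 185, and with the longest transcript as the length Ets1 stood above Nfil3. Ets1 and Rora overlapped in range, though Ets1 was the higher in each of the 4 libraries. A wide gap followed, between the lowest Rora level (83.4) and the highest Tcf7 level (32.2). Tcf7 overlapped Gfi1 and Gfi1 overlapped Bcl11b, with orders that changed between mice, whereas every Bcl11b level was above every Zbtb16 level.

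**Figure D1:**
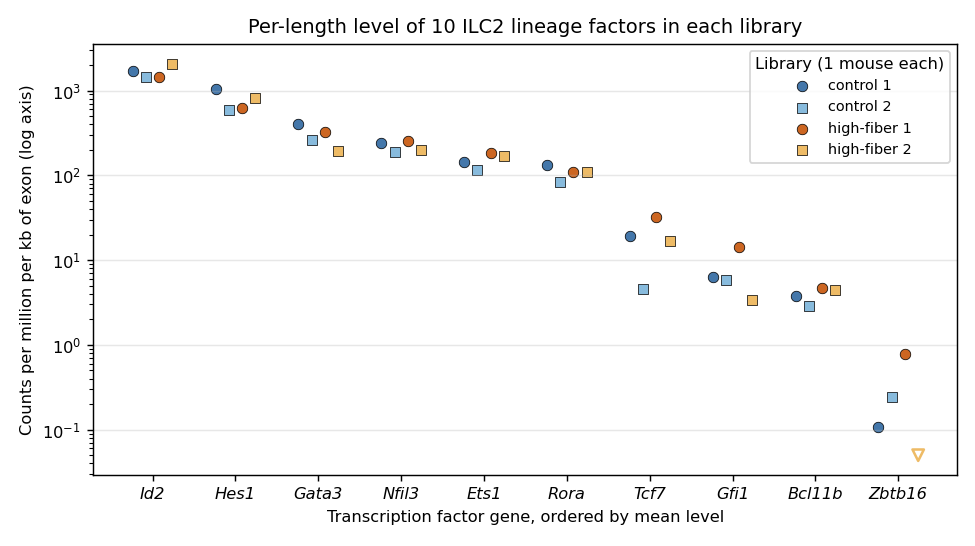
Level of each factor in each library, as CPM per kilobase of exon on a log axis, with genes ordered by their mean. The open triangle marks the library in which Zbtb16 had 0 counts, which has no place on a log axis. Id2 is on top in every library, and a gap separates Rora from Tcf7, Gfi1, Bcl11b and Zbtb16.

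The comparison of diets asked whether a high-fiber diet came with other transcript levels of these factors than the control diet. None of the 10 passed edgeR's quasi-likelihood test in either direction, against the 0.0338% of all tested genes that did, and the smallest adjusted p among them was 0.651, for Ets1. None had an unadjusted p under 0.05 with edgeR, where 8.80% of all tested genes did. DESeq2 called 0 of the 10, against 1.82% of the genes it gave an adjusted p, and limma-voom called 0. Ets1 alone had an unadjusted p under 0.05 with DESeq2 (0.0419), and it did so with limma-voom too. The share of all genes under that cut was not counted for either method, so this has no background beside it. The log2 fold change, high-fiber over control, was positive for 8 of the 10 and negative for Gata3 and Hes1, with a median of 0.30 beside -0.016 over all tested genes. Without control library 1 all 10 were positive, and without any 1 of the other 3 libraries 6 were positive and 4 negative.

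Groups did not overlap for 2 of the 10, Ets1 and Bcl11b, which were higher in each high-fiber mouse than in each control mouse. Among all tested genes 18.5% were higher in this way, so a count of 2 in 10 is near the background. The 5 tested B and plasma cell markers were also higher in each high-fiber mouse than in each control mouse, and their part in these values was not tested. For the other 8 factors a gap between mice of the same diet was larger than the gap between diets. Of the 6111 genes with a mean of at least 20 CPM, 26.2% had a diet gap larger than the gap between mice in both diets.

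**Figure D2:**
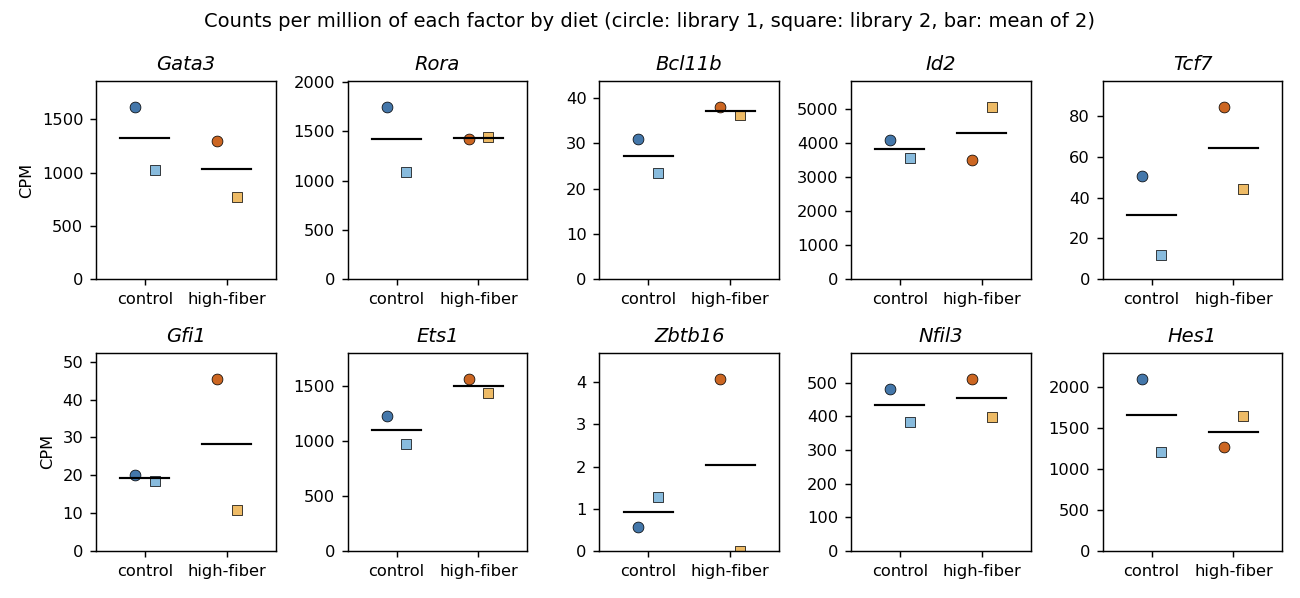
CPM of each factor in the 2 control and the 2 high-fiber libraries, on axes that start at 0. Circles are library 1 and squares library 2 of a diet, and bars are means of 2 mice. Ets1 and Bcl11b are the panels in which the diets do not overlap.

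Among the factors of commitment, Gata3 encodes the zinc finger protein that ILC2s share with T helper cells making type 2 cytokines. It lies on chromosome 2 from 9857078 to 9887953 (GRCm38, NCBI gene 14462). Gata3 was at 1615 and 1026 CPM in the first and second control mouse, against 1296 and 766 in the first and second high-fiber mouse. The groups overlapped, and library 1 was the higher in both diets. The means were 1321 ± 417 (control) and 1031 ± 375 CPM (high-fiber; SD, n = 2 each), a log2 fold change of -0.36 ± 0.34 (SE). The 95% interval of that change ran from -1.16 to 0.45, that is from 0.446-fold to 1.37-fold, and its adjusted p by edgeR was 0.836. The change was 0.010 without control library 1 and -0.76 without high-fiber library 1. Gata3 shares 155 exon bases with the antisense RNA Gm13256 and 77 with 9230102O04Rik on its own strand, and no source used here gives the strand setting of the counting, so reads there could be split.

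Rora encodes RORα, a nuclear receptor without which few ILC2s form, and lies on chromosome 9 from 68653404 to 69388246 (NCBI gene 19883). Rora was at 1750 and 1090 CPM in the control mice, against 1422 and 1449 in the high-fiber mice. Both high-fiber mice sat between the 2 control mice. This gave a log2 fold change of 0.015 ± 0.27 (SE), with a 95% interval from -0.64 to 0.67 and an adjusted p by edgeR of 0.994. Its sign turned without scaling factors (-0.022). In per-length terms Gata3 stood 3.03 and 3.09 times as high as Rora in the control libraries and 2.99 times in high-fiber library 1, but 1.74 times in high-fiber library 2. Rora shares 82 exon bases with the antisense RNA Gm15511.

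Bcl11b encodes a zinc finger repressor of T cells and ILC2s, on chromosome 12 from 107910403 to 108004145 (NCBI gene 58208). It was at 30.9 and 23.3 CPM in the control mice, against 38.0 and 36.2 in the high-fiber mice. The high-fiber pair lay above the control pair, and per length Bcl11b stood far below Gata3 and Rora in every library. High-fiber over control, its log2 fold change was 0.44 ± 0.34 (SE; 95% interval -0.38 to 1.26), with an adjusted p by edgeR of 0.798. It stayed positive without each library in turn, from 0.26 to 0.67, as the lack of overlap requires.

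Gfi1 encodes a zinc finger repressor known to sustain Gata3 expression in ILC2s, on chromosome 5 from 107716655 to 107725805 (NCBI gene 14581). It was at 19.9 and 18.4 CPM in the control libraries, at 45.5 CPM in high-fiber library 1 and at 10.7 CPM in high-fiber library 2. The control mice were close together, and the high-fiber mice lay on either side of them, 4.24-fold apart. Their gap, 2.08 on the log2 scale, was larger than that of 98.3% of genes with a mean of at least 20 CPM. The fitted log2 fold change was 0.61 ± 0.65 (SE; 95% interval -0.94 to 2.15) with an adjusted p by edgeR of 0.864, and it became -0.81 without high-fiber library 1 and 1.24 (unadjusted p under 0.05) without high-fiber library 2. Gfi1 shares 101 exon bases with A430072P03Rik on the opposite strand.

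Id2 is the inhibitor of DNA binding that all innate lymphoid cells need. Its protein has a helix-loop-helix for pairing but no basic region, so it takes E proteins out of action. Id2 lies on chromosome 12 from 25093799 to 25096092 (NCBI gene 15902). It was at 4103 and 3557 CPM in the control mice, against 3509 and 5074 in the high-fiber mice. The high-fiber mice held both the lowest and the highest value. This 1 gene took 0.346% to 0.498% of all counts of a library. Its log2 fold change was 0.16 ± 0.26 (SE; 95% interval -0.47 to 0.80) with an adjusted p by edgeR of 0.916, and without high-fiber library 2 it was -0.13.

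Transcripts of the E proteins that ID2 binds lay at a small fraction of the Id2 transcript level. Summed per length, the E protein genes Tcf3, Tcf4 and Tcf12 came to 10.5 and 6.74 in the control libraries and to 11.7 and 8.08 in the high-fiber libraries. Id2 stood 160 and 217 times above that sum in the control libraries and 123 and 258 times above it in the high-fiber libraries. The diets overlapped in this ratio. It depends on the exon lengths used, which were varied for the 10 factors only. In CPM, not divided by length, Tcf12 was at 61.3 to 81.9, Tcf4 at 11.9 to 23.7 and Tcf3 at 7.85 to 27.3. On that scale Id2, at 3509 to 5074 CPM, stood above them by a smaller factor. The other inhibitors were scarce: Id1 held 16 to 113 counts a library, Id3 14 to 101, and Id4 had 0 counts in all 4. Tcf12 was the E protein gene with the highest level per length, at 4.68 on average, and Tcf3 was next at 3.93. Of the 5 tested genes of the E protein and ID list, 2 had positive and 3 negative log2 fold changes, 0 passed by edgeR (0 at p under 0.05 before adjustment) and none was a DESeq2 call. Without control library 1 the signs were 4 positive and 1 negative, and without control library 2 they were 0 and 5.

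Tcf7 encodes TCF-1, the partner of β-catenin that early innate lymphoid progenitors and T cells share. It lies on chromosome 11 from 52246527 to 52283383 (NCBI gene 21414). Tcf7 had 1527 and 254 counts in the control libraries, or 50.6 and 12.1 CPM, and 2439 and 901 counts in the high-fiber libraries, or 84.5 and 44.2 CPM. Control library 2 was the low one, 4.18-fold below control library 1, and high-fiber library 2 lay below control library 1. The gap between the control mice, 2.06 on the log2 scale, was larger than that of 99.7% of genes with a mean of at least 20 CPM. This gave a log2 fold change of 1.00 ± 0.62 (SE), a 2.00-fold difference with a 95% interval from 0.716-fold to 5.59-fold, and the adjusted p by edgeR was 0.732. It was 2.42 (unadjusted p under 0.05) without control library 1 and 0.36 without control library 2. The fit with the replicate number as a block gave Tcf7 an unadjusted p under 0.05 but an adjusted p of 0.542.

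Lef1, the closest relative of Tcf7 in lymphocytes, was at 24.1 and 26.5 CPM in control against 17.1 and 10.9 CPM in high-fiber mice, with a log2 fold change of -0.82 ± 0.44 (SE) and an adjusted p by edgeR of 0.680. Within a library, Tcf7 stood 7.01 and 1.53 times as high as Lef1 per length on the control diet and 16.5 and 13.6 times as high on the high-fiber diet. In counts, not divided by length, the ratio was 2.09 and 0.457 in the control libraries and 4.94 and 4.06 in the high-fiber libraries. On that scale Lef1 was above Tcf7 in control library 2, with 556 counts against 254. The per-length ratios depend on exon lengths, which were not varied for Lef1. On either scale the ratios did not overlap between the diets, and the pair was set side by side after the values were seen. Of 14 tested genes among the WNT and TCF-1 partners, 8 were positive and 6 negative, with a median of 0.030, while limma-voom gave 5 positive. No gene passed by edgeR, 1 was lower with p under 0.05 before adjustment (4.10% of all tested genes were), and DESeq2 made no call. That gene was Bcl9l, a β-catenin cofactor, with 29 and 24 counts in the control libraries and 1 and 0 in the high-fiber libraries. Ctnnb1, which encodes β-catenin, was at 169 and 128 CPM and at 171 and 208 CPM. Ctbp1, a corepressor gene, was the most abundant per length (54.0) of the members with an exon length, which Tle5 lacked, and was at 210 and 147 CPM and at 393 and 218 CPM.

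Hes1 lies on chromosome 16 from 30065357 to 30067796 (NCBI gene 15205). It was at 2099 and 1207 CPM in the control mice, against 1260 and 1646 in the high-fiber mice. The control mice held the highest and the lowest value, with both high-fiber mice between them. High-fiber over control, its log2 fold change was -0.19 ± 0.31 (SE; 95% interval -0.94 to 0.56) with an adjusted p by edgeR of 0.921, and it was 0.27 without control library 1. Hes1 stood far above the related NOTCH targets. Hey1 was at 35.9 to 57.2 CPM, and Hes1 exceeded it per length 73.3 and 53.9 times in the control libraries and 38.7 and 46.2 times in the high-fiber libraries. Hes5 held 0 to 2 counts a library and Hey2 had 0 counts in all 4.

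The receptors and processing genes of the NOTCH pathway were present. Notch2 was at 17.2 to 37.2 CPM and Notch1 at 6.62 to 13.1 CPM. Psen2, a catalytic subunit gene of γ-secretase, was the most abundant member of the list per length (57.2), with Ncstn, another subunit gene, next at 45.0. Of 20 tested NOTCH pathway genes 11 were positive and 9 negative, with a median log2 fold change of 0.073. None passed by edgeR, 1 was higher and 1 lower with p under 0.05 before adjustment (4.70% and 4.10% of all tested genes). DESeq2 made no call. The higher one was Rbpj, the DNA-binding partner of NOTCH, at 57.5 and 35.6 CPM in control against 109 and 102 CPM in high-fiber mice (1.16 ± 0.31 SE; adjusted p by edgeR = 0.447, and by DESeq2 0.0538). The lower one was Lfng, a glycosyltransferase that modifies NOTCH receptors, at 16.6 and 18.1 CPM and at 6.58 and 8.20 CPM (-1.24 ± 0.52 SE; adjusted p by edgeR = 0.562).

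Nfil3 encodes a basic leucine zipper factor that early innate lymphoid progenitors need and that is also tied to the circadian clock. It lies on chromosome 13 from 52967209 to 52982878 (NCBI gene 18030). Nfil3 was at 483 and 383 CPM in the control mice, against 513 and 398 in the high-fiber mice. The diets overlapped and library 1 was the higher in each. The fitted log2 fold change was 0.074 ± 0.24 (SE; 95% interval -0.50 to 0.64) with an adjusted p by edgeR of 0.963. Nfil3 was the least variable of the 10 over the 4 libraries, with an SD of 0.21 on the log2 scale.

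NFIL3 competes for its sites with the activators DBP, TEF and HLF. Hlf was at 71.7 and 72.4 CPM in control against 131 and 129 CPM in high-fiber mice, with the mice of a diet close together. Its log2 fold change was 0.85 ± 0.23 (SE), with an unadjusted p of 0.00891 and an adjusted p by edgeR of 0.447 (by DESeq2 0.0649), so it did not pass. Dbp was at 8.24 to 11.3 CPM and Tef at 2.81 to 14.3 CPM, each with diets that overlapped.

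Ets1 encodes the founding ETS factor, on chromosome 9 from 32636241 to 32757820 (NCBI gene 23871). It was at 1229 and 971 CPM in the control mice, against 1569 and 1439 in the high-fiber mice. The high-fiber pair lay above the control pair. The means were 1100 ± 182 and 1504 ± 91.6 CPM (SD, n = 2 each), a log2 fold change of 0.45 ± 0.22 (SE) or 1.37-fold. The 95% interval ran from 0.948-fold to 1.97-fold. The adjusted p was 0.651 by edgeR and 0.494 by DESeq2. Without each library in turn the log2 fold change lay between 0.29 and 0.63, positive as the lack of overlap requires. Its relatives Ets2 and Fli1 were lower in each high-fiber mouse than in each control mouse: Ets2 was at 336 and 238 CPM and at 215 and 142 CPM, and Fli1 at 98.9 and 123 CPM and at 70.9 and 79.4 CPM. Neither passed by edgeR (adjusted p = 0.593 and 0.615).

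Zbtb16 encodes PLZF, a BTB and zinc finger protein found in innate lymphoid precursors and natural killer T cells. It lies on chromosome 9 from 48651797 to 48836225 (NCBI gene 235320). The control libraries held 17 and 27 counts, high-fiber library 1 held 118, and high-fiber library 2 held 0. A count of 0 allows up to 3 counts, or 0.147 CPM, a limit for counting error alone, because PCR duplicates do not count molecules. In CPM the 4 values were 0.563, 1.29, 4.09 and 0, so the high-fiber mice again held both extremes. Its fitted log2 fold change of 1.44 ± 1.28 (SE; adjusted p by edgeR = 0.821) differed in sign from that of limma-voom, -0.88. Without high-fiber library 1, which leaves the high-fiber diet at 0, edgeR gave -7.36, a value that depends on the prior count and is no bound.

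**Figure D3:**
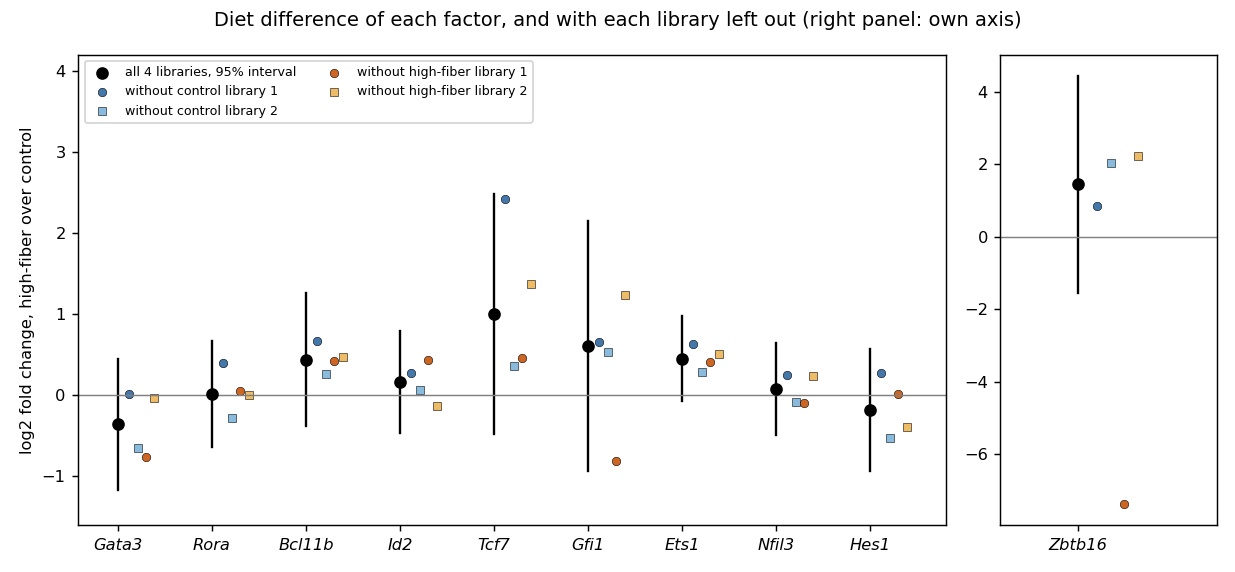
The log2 fold change of each factor, high-fiber over control, by edgeR with its 95% interval (black), and the same value with 1 library left out (colored). Each of the 10 intervals includes 0, and Zbtb16 has its own axis because of its value of -7.36 without high-fiber library 1.

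The relatives that share a family with these factors were mostly low. Of 22 relatives, 10 did not pass the filter on low counts. Gata2 held 1 count in all, and Gata1 had 75 counts in control library 1 and 0 in the others. Rorb held 4 counts over the 4 libraries, Bcl11a 1 and Gfi1b 0. Of the 12 relatives tested, 4 were positive and 8 negative, with a median of -0.32. Without control library 1, where 14 relatives were tested, the signs were 8 positive and 6 negative. None passed by edgeR or by DESeq2. Before adjustment 1 was higher (Hlf) and 1 lower with p under 0.05, which is 8.33% each beside 4.70% and 4.10% of all tested genes. The lower one was Hes7, at 31 and 23 counts on the control and 4 and 1 on the high-fiber diet. Ets2 and Fli1 were the most abundant relatives per length, at 40.3 and 26.7.

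Corepressors and partners of GATA3, GFI1, BCL11B and PLZF had 10 positive and 8 negative values among 18 tested, with a median of 0.095. Leaving out control library 1, or high-fiber library 2, gave 14 positive and 4 negative. They were 8 and 10 without control library 2, and 7 and 11 without high-fiber library 1. No gene passed by edgeR, 2 were higher with p under 0.05 before adjustment (11.1%, against 4.70% of all tested genes), and DESeq2 called 1 of them (1.21% of the genes it gave an adjusted p were). The called gene was Ncor1, a corepressor of nuclear receptors and of PLZF, at 575 and 314 CPM in control against 894 and 1222 CPM in high-fiber mice (1.25 ± 0.33 SE; adjusted p by edgeR = 0.447, by DESeq2 0.0172). The other was Cbfb, the partner of RUNX factors, at 115 and 127 CPM and at 202 and 203 CPM (0.74 ± 0.22 SE; adjusted p by edgeR = 0.447). Rbbp7, a histone-binding subunit of repressor complexes, was the most abundant member per length (164), at 425 to 558 CPM. Zfpm1, which encodes the GATA partner FOG-1, was at 0.810 to 4.05 CPM.

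Factors of the other innate lymphoid and helper T cell programs gave the most values of small p. Of 22 tested, 14 were positive and 8 negative, with a median of 0.21, and groups did not overlap for 9 in the higher direction (40.9%, against 18.5% of all tested genes) and 3 in the lower (13.6%, against 19.6%). Without high-fiber library 1, where 24 of these factors were tested, the signs were 12 and 12. None passed by edgeR. Before adjustment 5 higher genes (22.7%, against 4.70% of all tested genes) and 1 lower gene (4.55%, against 4.10%) had p under 0.05. DESeq2 called 3 of the higher ones, against 1.21% of all genes it gave an adjusted p. The 5 were Tox2, Irf4, Zeb2, Tox and Maf. The B and plasma cell markers, whose cells also make Irf4, were higher in the same 2 mice. The macrophage, monocyte and dendritic cell markers summed to 159 and 312 CPM in control and to 364 and 387 CPM in high-fiber mice. The NK cell and ILC1 markers, Tbx21 among them, summed to 306 and 365 CPM and to 234 and 258 CPM. The part of these cells was not tested. Irf4, which acts in activated lymphocytes, was at 27.1 and 22.2 CPM and at 89.9 and 58.2 CPM (1.59 ± 0.35 SE; adjusted p by edgeR = 0.447, by DESeq2 0.00660). Zeb2, a zinc finger repressor, was at 7.65 and 14.4 CPM and at 32.9 and 48.6 CPM (1.92 ± 0.48 SE; adjusted p by DESeq2 = 0.0289). Tox, which early innate lymphoid progenitors need, was at 274 and 210 CPM and at 440 and 359 CPM (0.72 ± 0.24 SE), and Maf at 38.3 and 51.4 CPM and at 69.9 and 106 CPM (0.97 ± 0.33 SE). Tox2 was at 0.0331 and 2.19 CPM and at 54.9 and 13.3 CPM. The lower one was Tbx21, which encodes T-bet of the type 1 program, with 498 and 48 counts in the control mice but 38 and 0 in the high-fiber mice. Batf and Ikzf3 were the most abundant per length, at 230 and 98.3. Eomes had 0 counts in all 4 libraries.

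**Figure D4:**
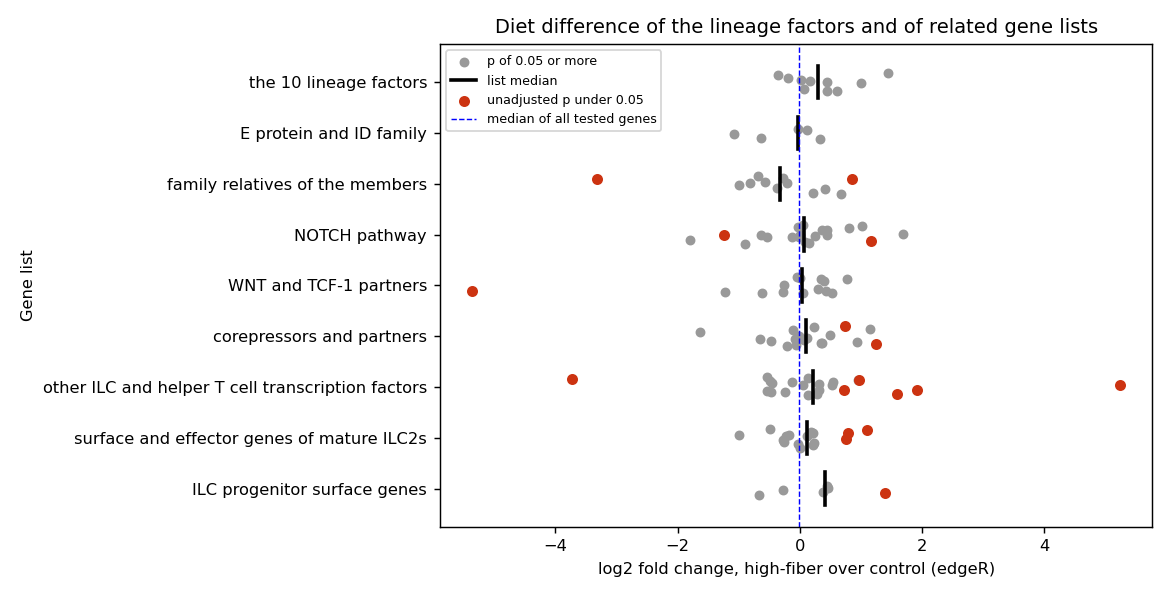
The log2 fold change of each tested gene, high-fiber over control, for the 10 lineage factors and 8 related lists, with the list medians (black bars) and the median of all tested genes (dashed line). Red points have an unadjusted p under 0.05. None of the 10 factors is red.

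Likeness of pattern was measured as the root mean square distance between log2 CPM values, centred on their mean, over the 4 libraries, among genes with a mean of at least 20 CPM. Profiles over so few libraries match easily: 547 genes lay within 0.15 of Id2, 365 of Nfil3, 205 of Ets1, 186 of Bcl11b, 151 of Rora, 124 of Gata3 and 87 of Hes1. Ets1 and Bcl11b were among each other's 3 nearest genes, at a distance of 0.029. Nearest to Gata3 were Fam207a (0.020), Ewsr1 (0.039) and Dusp5 (0.044). Nearest to Id2 were Cep120, Trip11 and Trmt12, to Hes1 Dcaf17, Bptf and Stxbp3, and to Rora Mtrr, Osgin2 and Usp24. Nearest to Nfil3 were Taok3, Fnbp1 and the clock gene Arntl, to Ets1 Uhrf2, Bcl11b and Cirbp, and to Bcl11b Chst12, Ets1 and Canx. Gfi1 had 4 genes within 0.15, led by Sipa1 (0.044), Atp2a3 and Nucb1. Tcf7 had 1, Kdm1b (0.14), followed by Pi4k2a and Itpkb. Zbtb16 had 0, and its nearest genes were Klhdc4 (0.56), Ccdc97 and Khnyn.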

How the data were processed

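The values are deposited raw read counts, whole numbers by NCBI gene identifier. They cover 4 libraries made from sorted ILC2s with the SMARTer Ultra Low Input RNA Kit V4, per the labels' protocols. Per the submitters' processing notes the tools include CASAVA 1.8.2 and STAR 2.3.0 with build mm10. Counting program and strand setting: not given in the sources used here. Of 27179 identifiers 25275 matched a symbol in RefSeq GRCm38.p6, and 0 value columns lacked a sample. Exon lengths were unions of GENCODE M21 exons.

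The tests used edgeR 4.0.16 under R 4.3.3. filterByExpr kept 11841 of 15425 genes with any count. The model had an intercept and diet, with TMM scaling, glmQLFit (legacy=FALSE), glmQLFTest and Benjamini-Hochberg adjustment over all tested genes at 0.05. Intervals are 95% and come from that fit. Its calls and fold changes were tested on simulated data, but how often its intervals hold the true value was not. CPM used TMM-scaled library sizes, and the likeness of profiles used a prior count of 2. The edgeR p-values set the diet difference against the spread between mice of a diet, with each gene's spread drawn towards a trend over all tested genes. They rest on these 4 mice alone. An exact permutation test of 2 against 2 cannot go below 0.333, so none was used. Other settings tried were DESeq2 1.42.0 and limma-voom from limma 3.58.1. Within edgeR they were legacy=TRUE (this release's default), a robust fit, RLE or upper-quartile scaling or none, an unfiltered table, a minimum of 5 CPM in 2 or more libraries, the replicate number as a block, and leaving out each library. Per-length levels were repeated with the longest transcript.

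The 10 members, the lists and the fit were chosen with earlier results of these data known. Genes named beside the members were those of a list with an unadjusted p under 0.05 (up to 6), its 2 most abundant per length, and the 3 nearest profiles; relatives, partners and markers described by level, and the ratios, were picked after their values were seen.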

Additional observations from a re-analysis of the deposited data

How the results depend on the processing

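None of the 10 factors passed an adjusted p under 0.05 in any of the 14 other settings of the test. Over those settings 127 of 139 log2 fold changes of the factors kept their sign, and 12 turned. Without scaling factors Rora was at -0.022, and with limma-voom Zbtb16 was at -0.88. With 1 library left out, the change ran from -0.76 to 0.010 for Gata3, from -0.29 to 0.40 for Rora, from -0.13 to 0.43 for Id2, from -0.81 to 1.24 for Gfi1, from -7.36 to 2.23 for Zbtb16, from -0.094 to 0.25 for Nfil3 and from -0.53 to 0.27 for Hes1. Bcl11b, Ets1 and Tcf7 were positive in each of the 14 settings. For Bcl11b and Ets1 the diets did not overlap, so leaving out a library could not show a turn of sign. Zbtb16 was not tested under the filter of 5 CPM. The count of all genes that passed in the higher direction was 4, and it became 0 with no filter, with limma-voom, with legacy=TRUE and with the replicate block, 8 with the filter of 5 CPM (and 1 lower) and 156 with DESeq2 (and 78 lower). With 1 library left out it was 0 to 1. A fit that leaves out a library assumes that the lone mouse varies like the other diet's mice. Deviations of same-numbered libraries from their diet means correlated at 0.041 across genes, and no label ties the numbers, so they were not taken as pairs. The replicate block left 0 of the 10 factors passing. Of 224 counts of positive or negative values in the related lists, 210 stayed within 1.5 times, although some settings tested other numbers of genes of a list. With the longest transcript as length, 4 of 10 per-length levels moved by more than their SD (Id2 2062, Hes1 1058, Ets1 256 and Rora 131) and Ets1 passed Nfil3 in rank. The causes were not tested.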

Other observations

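Genes that mature ILC2s use at their surface or release, many of them known to depend on GATA3 or RORα, were also compared. Of 17 tested, 10 were positive and 7 negative on the high-fiber diet, with a median log2 fold change of 0.12. None passed by edgeR, 3 were higher at an unadjusted p under 0.05 (Il5, Icos and Kit; 17.6%, against 4.70% of all tested genes), and DESeq2 called Kit, against 1.21% of all genes it gave an adjusted p. Il5, the eosinophil growth factor gene, was at 3043 and 2559 CPM in control against 5889 and 3799 CPM in high-fiber mice. Icos, a costimulatory receptor gene, was at 1153 and 835 CPM and at 1707 and 1665 CPM, and Kit, the stem cell factor receptor gene, at 273 and 212 CPM and at 666 and 379 CPM. Ccr8 and Csf2 were the most abundant of this list per length, at 3246 and 2597, above Id2.

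Surface genes of innate lymphoid progenitors had 4 positive and 2 negative values among 6 tested. None passed by edgeR. Pdcd1, which encodes PD-1, was higher at an unadjusted p under 0.05 by edgeR (16.7% of the 6, against 4.70% of all tested genes). It was at 418 and 297 CPM in control against 1299 and 591 CPM in high-fiber mice. DESeq2 called it (adjusted p 0.0182), against 1.21% called higher among all genes it gave an adjusted p. Flt3 held 33 counts in control library 2 and 0 in the others. Il18r1, the IL-18 receptor gene, was at 14.0 to 21.4 CPM, and Cxcr6, a chemokine receptor gene, at 3332 to 4744 CPM.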
